A study of Mus musculus with 6 samples.

Results

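Heat shock proteins are chaperones, which bind other proteins while these fold, assemble or refold after damage. The genes of the cytosolic and mitochondrial forms were read here from a table of RNA sequencing counts in LPS-stimulated mouse macrophages. The rule for choosing them was a list of 10 symbols: Hspa1a, Hspa1b, Hspa8, Hsph1, Hsp90aa1, Hsp90ab1, Dnajb1, Hspd1, Hspe1 and Hsf1. All 10 were found among the 23337 symbols of the table, and all 10 passed the filter on low counts, as did 12923 genes in all.

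The cells were bone marrow-derived macrophages, grown from C57BL/6 bone marrow with 10% M-CSF, a macrophage growth factor, until day 7. All cells had received LPS, which comes from the outer membrane of bacteria, at 100 ng/ml for 8 h, so no value below is a response to LPS itself. The genotypes were wild type (WT), a knockout of Ch25h (Ch25hKO), whose enzyme makes 25-hydroxycholesterol, and a double knockout of LXRα and LXRβ (LXRdKO), the liver X receptors, which are nuclear receptors for oxysterols. Each genotype had 2 libraries, and the labels name no Cre or transgene. Whether both libraries of a genotype stem from separate animals or dishes is not in the labels. The p-values thus reflect the spread among these libraries alone, and that spread may be technical. For each gene it was estimated with the help of all other genes, not from its own libraries only. In bulk cultures, fewer cells of a type and less RNA per cell cannot be told apart.

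HSP70 proteins hold unfolded stretches of other proteins in a cycle driven by ATP. J-domain proteins such as that of Dnajb1 start the cycle, and nucleotide exchange factors such as that of Hsph1 end it. HSP90 proteins act later, on kinases and receptors that are nearly folded, while HSP60 and HSP10 form a folding chamber inside mitochondria. The transcription factor HSF1 is known to raise many of these genes by binding heat shock elements, repeats of the bases GAA in alternating orientation. Its own activity is known to be controlled mainly at the protein level.

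The libraries were alike in size, with 41650513 to 45872964 counts each. The targeted genes were low in the libraries named for them, Ch25h having 42 and 57 counts for Ch25hKO against 3120 and 3076 for WT. In LXRdKO, Nr1h3 (LXRα) had 42 and 41 counts and Nr1h2 (LXRβ) had 35 in both libraries. The 8 macrophage markers summed to 17041 to 20541 CPM, CPM being the usual depth-scaled count, here with TMM factors applied to the library sizes. Markers of stromal cells, dendritic cells and neutrophils were far lower, at most 30.9, 27.8 and 55.2 CPM in sum. Rn45s, a precursor of ribosomal RNA, held 1.01% and 1.06% of all counts in LXRdKO and at least 1.26% in each of the other 4 libraries.

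Promoter sequences were found for 6 of the 10 genes, all but Hspa8, Hsp90aa1, Hsp90ab1 and Hsf1. These came from a RefSeq table (GRCm38.p6) of 300-base windows, 250 bases before and 50 after each start. They were searched on both strands for heat shock elements of at least 2 facing repeats, GAANNTTC or TTCNNGAA, both of which read the same on either strand. Runs in which a further repeat follows after the same gap of NN were counted as well, and these contain the shorter matches. Stretches of 160 bases, from 180 to 21 bases before the start, are shown for the inducible HSP70 pair, for Hsph1 and for the mitochondrial pair, whose shared or matching bases are described next. Capitals mark the matches.

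Hspa1a, chr17:34972177-34972336, minus strand: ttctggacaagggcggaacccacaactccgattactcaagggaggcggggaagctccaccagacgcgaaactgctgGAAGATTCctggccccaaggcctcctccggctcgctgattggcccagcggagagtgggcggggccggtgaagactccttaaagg
Hsph1, first start, chr5:149636357-149636516, minus strand: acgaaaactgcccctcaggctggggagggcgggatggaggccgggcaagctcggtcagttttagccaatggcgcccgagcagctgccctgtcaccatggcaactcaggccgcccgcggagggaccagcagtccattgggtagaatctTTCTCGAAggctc
Hspe1, chr1:55087968-55088127, plus strand: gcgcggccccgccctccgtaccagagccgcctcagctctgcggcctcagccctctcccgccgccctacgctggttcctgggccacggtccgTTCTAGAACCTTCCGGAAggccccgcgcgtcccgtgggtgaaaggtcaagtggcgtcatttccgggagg

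The Hspa1b stretch (chr17:34959259-34959418) was the same as that of Hspa1a in all 160 bases, with 0 differences. Over the whole 300-base windows, the pair differed at 4 positions, counted from the 5′ end with the base of Hspa1a first: C44T, T47C, T249G and C276T. None of them lay in the match, whose first base was 104 bases before the start in both genes. Hspe1 and Hspd1 lie head to head on chromosome 1, and 285 bases of the Hspe1 window were also in the window of the second Hspd1 start, read from the other strand. Their matches were thus the same bases, with 4 repeats in a row. Hsph1 had a run of 3 repeats at position +37 from its first start (the start being +1), outside the stretch shown. Dnajb1 held no match in the windows of its 2 starts. In all, 5 of the 6 genes held a match and 3 held a run of 3 repeats. The matched sequence is the same within each pair, so these counts are not of separate sequences. Of the 27025 genes in the table, 17% held a pair of repeats in at least 1 window and 0.662% a run of 3. Of its 32851 windows, 15.1% and 0.603% did. A match of letters is a description and shows no binding.

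Without Ch25h, 5 of the 10 genes fell and 3 rose. Across all tested genes, 19.5% fell and 19.8% rose in this comparison by edgeR's quasi-likelihood test at an adjusted p under 0.05. Without the LXRs, 9 of the 10 fell and 0 rose, against 15.5% of all tested genes that fell and 16.4% that rose. Between the knockouts, 9 of the 10 were lower in LXRdKO than in Ch25hKO and 0 were higher, against 18.6% and 19.3% of all genes. Counting both directions, 39.3%, 31.8% and 37.9% of all tested genes changed in the 3 comparisons. In each call of the 10 genes the libraries of both groups did not overlap. Among all tested genes, the Ch25hKO libraries lay wholly above WT for 35.6% and wholly below for 32.7% (68.3% together), and the LXRdKO libraries for 32.9% and 30.6% (63.6% together). LXRdKO lay wholly above Ch25hKO for 34.7% and wholly below for 36.6% (71.2% together). The median log2 fold change of the 10 was -0.10 in Ch25hKO and -0.33 in LXRdKO against WT, where the medians of all tested genes were 0.01 and 0.00. The WT libraries are shared by both comparisons with WT.

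**Figure D1:**
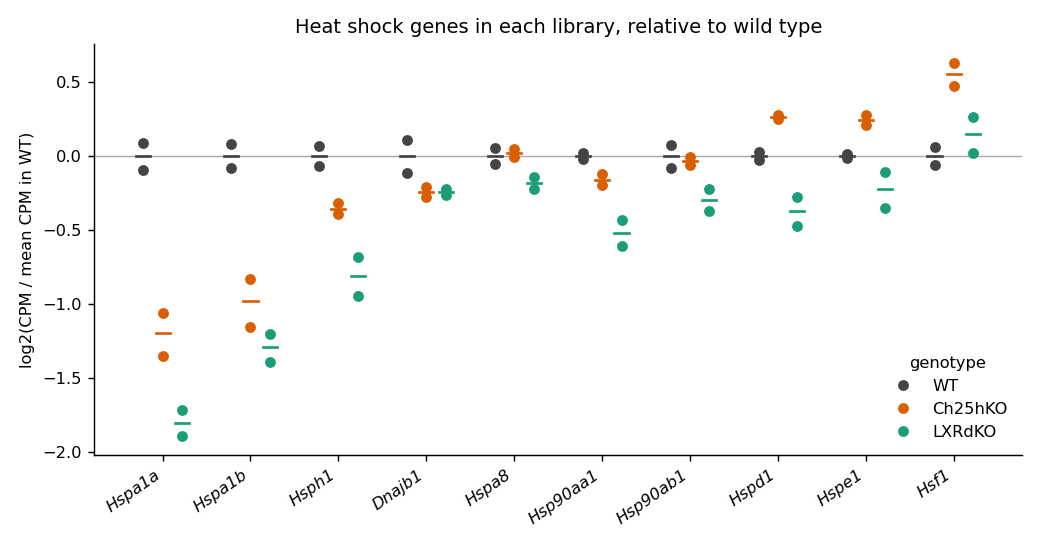
Each point is 1 library, placed by its CPM relative to the WT mean of that gene on a log2 scale, and short lines mark group means (n = 2). Hspa1a, Hspa1b and Hsph1 were highest in WT and lowest in LXRdKO, Hspd1 and Hspe1 were highest in Ch25hKO and lowest in LXRdKO, and Hsf1 was highest in Ch25hKO.

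The libraries of a group also differed among themselves. Of the 10 genes, 8 had a higher CPM in WT replicate 1 than in WT replicate 2, 8 in Ch25hKO replicate 2 than in replicate 1, and 10 in LXRdKO replicate 1 than in replicate 2. Over all genes, the chi-square per degree of freedom between the libraries of a group was 12.3 for WT, 5.10 for Ch25hKO and 4.24 for LXRdKO, where 1 would be counting noise. Malat1, a nuclear RNA, took 1.10% of the counts in WT replicate 1 and 1.36% to 1.79% in the others. The part of these differences in the results was not tested. Without LXRdKO replicate 2, the log2 fold changes against WT of Hspa8 (-0.15), Hsp90ab1 (-0.22), Dnajb1 (-0.22) and Hspe1 (-0.11) were smaller and not called. Those against Ch25hKO of Hspa1b (-0.22), Hspa8 (-0.17), Hsp90ab1 (-0.19) and Hsf1 (-0.29) were also smaller and not called. In both comparisons, fewer genes of the whole table were called lower without that library, so such losses are not particular to these 10. The heat shock genes that fell against WT both with and without LXRdKO replicate 2 were Hspa1a, Hspa1b, Hsph1, Hsp90aa1 and Hspd1. In Ch25hKO against WT, Hsp90aa1 was at -0.14 and Dnajb1 at -0.13 without WT replicate 1, neither of them called. They were at -0.13 and -0.22 without Ch25hKO replicate 1, again not called.

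The stress-inducible HSP70 genes had the largest fold changes of the 10 genes against WT. Hspa1a (ENSMUSG00000091971.3, chromosome 17, 34969190 to 34972156, GRCm38, minus strand) stood at 375 and 332 CPM in WT. It stood at 139 and 170 CPM in Ch25hKO and at 108 and 95.4 CPM in LXRdKO. The 3 groups did not overlap, and both knockouts lay far below WT. Hspa1a came to 43.7% of the WT mean in Ch25hKO, a log2 fold change of -1.20 ± 0.10 (SE, n = 2 per group, edgeR adjusted p = 5.12e-06). In LXRdKO it came to 28.7%, a log2 fold change of -1.80 ± 0.10 (edgeR adjusted p = 4.15e-07), and only 0.805% of the tested genes had a lower one. The fall was larger in LXRdKO by 0.60 ± 0.10 on the log2 scale (edgeR adjusted p = 0.000694).

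Hspa1b (ENSMUSG00000090877.3, chromosome 17, 34956436 to 34959238, minus strand) encodes a nearly identical protein and lies next to Hspa1a. It had 118 and 105 CPM for WT, 50.3 and 62.8 for Ch25hKO, and 48.5 and 42.7 for LXRdKO. Here too WT was highest and the groups did not overlap, but both knockouts lay close together. The log2 fold changes against WT were -0.98 ± 0.10 in Ch25hKO (edgeR adjusted p = 4.72e-05) and -1.29 ± 0.10 in LXRdKO (edgeR adjusted p = 1.14e-05). The difference between the knockouts was small (-0.31 ± 0.11, edgeR adjusted p = 0.0453). It was lost in 6 of 15 alternatives, among them DESeq2 (adjusted p = 0.162), a fit of only the libraries compared (0.0779), and those without WT replicate 2 (0.0554), Ch25hKO replicate 2 (-0.14, 0.273) or LXRdKO replicate 2 (0.228).

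The balance between the 2 genes differed from genotype to genotype. The count of Hspa1a was 3.18 and 3.15 times that of Hspa1b for WT, 2.76 and 2.70 times for Ch25hKO, and 2.22 and 2.23 times for LXRdKO. The spread within a group was far smaller than the steps between groups. An exact two-sided permutation test gave p = 0.333 for each of the 3 comparisons of this ratio (n = 2), the smallest p that 2 against 2 libraries allow. Of all 50-base windows of the Hspa1a transcript, 58.8% also occurred in Hspa1b, and 33.7% occurred in no other annotated gene. The sources used here do not say how such reads were assigned, so the split between both genes is uncertain. Their summed level does not depend on how reads were split between the pair, though it would depend on shared reads being left out or going to other genes. It was 437 to 493 CPM for WT, 189 to 233 for Ch25hKO and 138 to 156 for LXRdKO. An annotated gene on the other strand, Gm20481, overlaps Hspa1a, and without strand information their reads cannot be told apart.

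**Figure D2:**
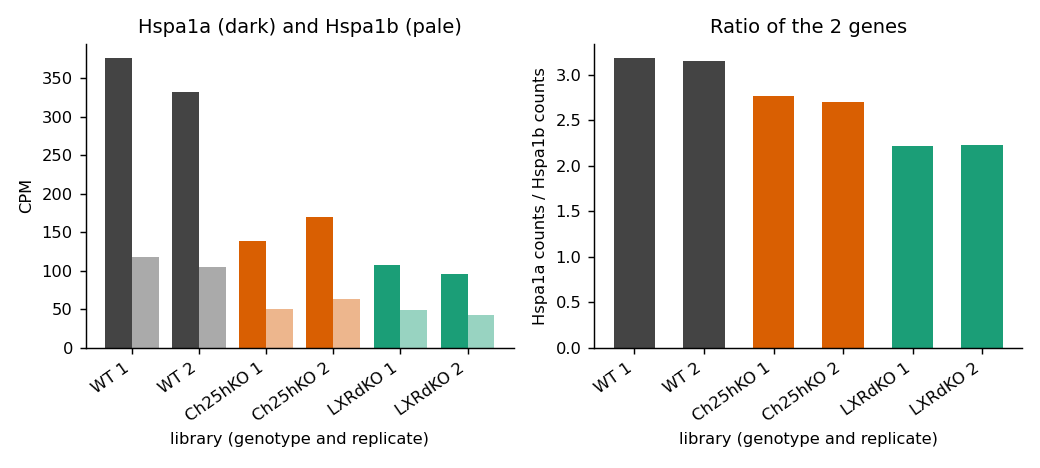
Left, CPM of Hspa1a (dark bars) and Hspa1b (pale bars) in each of the 6 libraries. Right, the ratio of their counts, which stepped from about 3.2 in both WT libraries to about 2.7 in Ch25hKO and 2.2 in LXRdKO.

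Hspa8 (ENSMUSG00000015656.17, chromosome 9, 40800984 to 40810087, plus strand) encodes HSC70, the HSP70 that cells make without stress. It had 3329 and 3083 CPM for WT, 3186 and 3317 for Ch25hKO, and 2899 and 2744 for LXRdKO. Both Ch25hKO libraries lay inside the WT range, and both LXRdKO libraries lay below all others. No change was called in Ch25hKO (0.02 ± 0.06, edgeR adjusted p = 0.823). In LXRdKO the mean was 88.0% of that of WT, and the log2 fold change was -0.18 ± 0.06 (edgeR adjusted p = 0.0288). That call was lost in 6 of 15 alternatives, among them those without WT replicate 1 (adjusted p = 0.122), Ch25hKO replicate 1 (0.0514), LXRdKO replicate 1 (0.0814) or LXRdKO replicate 2 (0.258). Against Ch25hKO, LXRdKO was lower by a log2 fold change of -0.20 ± 0.06 (edgeR adjusted p = 0.0131), lost without Ch25hKO replicate 1 (0.0549), Ch25hKO replicate 2 (0.126) or LXRdKO replicate 2 (0.182). Only 25.2% of the 50-base windows of Hspa8 were found in no other annotated gene, the others also lying in 13 genes, mostly predicted gene models.

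The count of Hspa8 was 8.87 and 9.29 times that of Hspa1a for WT, 22.9 and 19.5 times for Ch25hKO, and 26.9 and 28.8 times for LXRdKO. Counts are not per length here, so the change of the ratio and not its size is what can be read.

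The HSP70 partners in the group fell in both knockouts. Hsph1 (ENSMUSG00000029657.15, chromosome 5, 149614287 to 149636376, minus strand) encodes HSP110, an exchange factor. It had 242 and 220 CPM for WT, 176 and 185 for Ch25hKO, and 144 and 120 for LXRdKO. The groups did not overlap and followed the order of Hspa1a. Its log2 fold change was -0.36 ± 0.07 in Ch25hKO (edgeR adjusted p = 0.00138) and -0.81 ± 0.07 in LXRdKO (edgeR adjusted p = 1.07e-06), and the step between the knockouts was -0.45 ± 0.07 (edgeR adjusted p = 0.000187). These 3 calls held in all 15 alternatives, and 100% of its windows were unique to it.

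Dnajb1 (ENSMUSG00000005483.10, chromosome 8, 83608193 to 83612653, plus strand) encodes HSP40. It had 110 and 94.2 CPM for WT, 84.4 and 88.3 for Ch25hKO, and 87.7 and 85.1 for LXRdKO. The knockouts lay together below WT. The log2 fold change was -0.24 ± 0.06 in both (edgeR adjusted p = 0.00587 in Ch25hKO and 0.00759 in LXRdKO), and their difference was 0.00 ± 0.06 (edgeR adjusted p = 0.996). Much rests on WT replicate 1: without it, the fold changes were -0.13 and -0.12 and neither was called (adjusted p = 0.0700 and 0.0796), and without WT replicate 2 both were -0.37. The calls were also lost without Ch25hKO replicate 1 (0.0830) and without LXRdKO replicate 2 (0.0961), respectively.

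**Figure D3:**
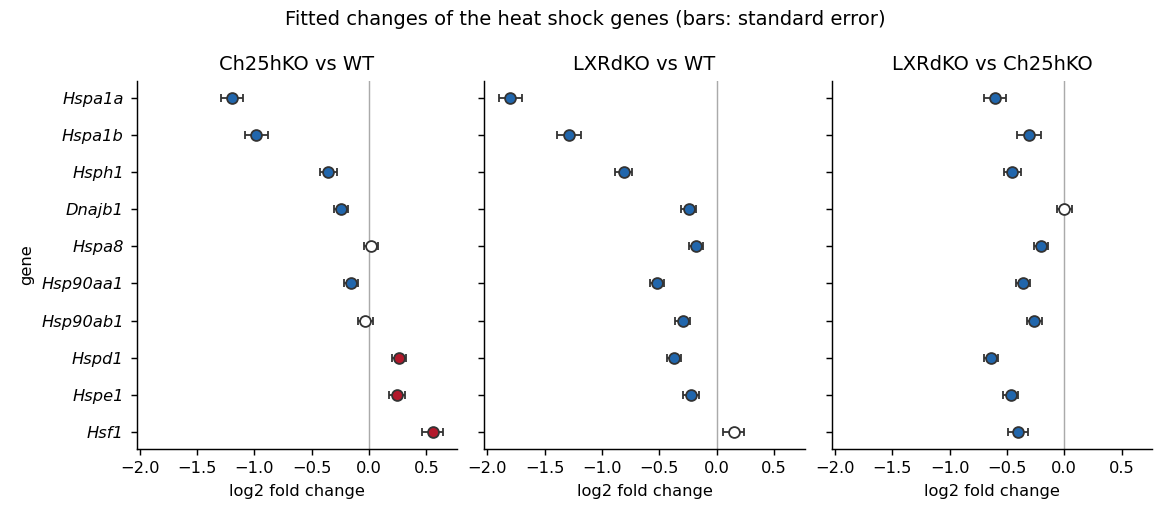
Log2 fold changes from the edgeR fit with standard errors as bars, for the 3 comparisons. Blue points were called lower, red points higher and open points were not called at an adjusted p under 0.05. In LXRdKO against WT all genes but Hsf1 were lower, from -1.80 for Hspa1a to -0.18 for Hspa8.

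Both HSP90 genes fell in LXRdKO. Hsp90aa1 (ENSMUSG00000021270.13, chromosome 12, 110690605 to 110702728, minus strand), the inducible form, had 715 and 697 CPM for WT, 617 and 648 for Ch25hKO, and 523 and 463 for LXRdKO. All 3 groups were apart, with LXRdKO lowest. It fell by 0.52 ± 0.06 on the log2 scale in LXRdKO (edgeR adjusted p = 4.06e-06), and LXRdKO was lower than Ch25hKO by a log2 fold change of -0.36 ± 0.06 (edgeR adjusted p = 0.000125). The fall in Ch25hKO was slight (-0.16 ± 0.06, edgeR adjusted p = 0.0457) and was lost in 7 of 15 alternatives, among them those without WT replicate 1 (adjusted p = 0.0636), Ch25hKO replicate 1 (0.282), Ch25hKO replicate 2 (0.0828), LXRdKO replicate 1 (0.0520) or LXRdKO replicate 2 (0.0524). Of its windows, 41.5% were unique.

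Hsp90ab1 (ENSMUSG00000023944.14, chromosome 17, 45567775 to 45573271, minus strand) is the constitutive form. It had 1857 and 1667 CPM for WT, 1688 and 1755 for Ch25hKO, and 1509 and 1361 for LXRdKO. WT and Ch25hKO overlapped, and LXRdKO lay below both. The log2 fold change was -0.03 ± 0.07 in Ch25hKO (edgeR adjusted p = 0.721) and -0.30 ± 0.07 in LXRdKO (edgeR adjusted p = 0.00217, lost without LXRdKO replicate 2 at 0.0846). LXRdKO was lower than Ch25hKO (-0.26 ± 0.07, edgeR adjusted p = 0.00396), which was lost without Ch25hKO replicate 2 (0.0513) or LXRdKO replicate 2 (0.127). Hsp90ab1 had 2.59 and 2.39 times the counts of Hsp90aa1 for WT, 2.74 and 2.71 times for Ch25hKO, and 2.89 and 2.94 times for LXRdKO, and 95.5% of its windows were unique.

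The mitochondrial pair rose in Ch25hKO and fell in LXRdKO. Hspd1 (ENSMUSG00000025980.14, chromosome 1, 55077835 to 55088243, minus strand) encodes HSP60, the wall of the folding chamber. It had 132 and 126 CPM for WT, 156 and 154 for Ch25hKO, and 106 and 92.9 for LXRdKO. Both Ch25hKO libraries lay above WT and both LXRdKO libraries below it. Hspd1 rose in Ch25hKO (0.26 ± 0.06, edgeR adjusted p = 0.00186) and fell in LXRdKO (-0.37 ± 0.06, edgeR adjusted p = 0.000120). The difference between the knockouts was -0.64 ± 0.06 (edgeR adjusted p = 1.49e-07), close to that of Hspa1a, and the 3 calls of Hspd1 held in all 15 alternatives.

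Hspe1 (ENSMUSG00000073676.4, chromosome 1, 55088132 to 55091307, plus strand) encodes HSP10, the lid of the chamber, and shares its promoter region with Hspd1 as shown above. It had 44.8 and 45.5 CPM for WT, 52.3 and 54.8 for Ch25hKO, and 41.9 and 35.5 for LXRdKO. The order of the groups was that of Hspd1. It rose by 0.25 ± 0.07 in Ch25hKO (edgeR adjusted p = 0.00744, lost without Ch25hKO replicate 2 at 0.0781) and had a log2 fold change of -0.22 ± 0.07 in LXRdKO (edgeR adjusted p = 0.0186). The latter was -0.11 and not called without LXRdKO replicate 2 (adjusted p = 0.328), and -0.35 without LXRdKO replicate 1. The knockouts differed by -0.47 ± 0.07 (edgeR adjusted p = 2.38e-05), which held in all 15 alternatives. The annotated gene bodies of the pair overlap, and 55.2% of the windows of each were unique.

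Hsf1 (ENSMUSG00000022556.11, chromosome 15, 76477422 to 76501913, plus strand), is the gene of the factor itself. It had 13.8 and 15.1 CPM for WT, 22.4 and 20.1 for Ch25hKO, and 17.4 and 14.7 for LXRdKO. Ch25hKO was above the other groups, and LXRdKO overlapped WT. Hsf1 rose in Ch25hKO to 147% of the WT mean (0.55 ± 0.09, edgeR adjusted p = 7.23e-05), where Hspd1 and Hspe1 also rose and Hspa1a, Hspa1b, Hsph1, Hsp90aa1 and Dnajb1 fell. It was not called in LXRdKO (0.15 ± 0.09, edgeR adjusted p = 0.230). As with 8 of the others, it was lower in LXRdKO than in Ch25hKO (-0.41 ± 0.09, edgeR adjusted p = 0.00114), which was lost without LXRdKO replicate 2 (0.0508). All of its windows were unique.

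Levels were compared between genes as CPM per kb of the annotated transcript with the longest coding sequence (GENCODE M21). In WT, Hspa8 was highest at 1339 ± 72.6 CPM per kb (SD, n = 2), followed by Hsp90ab1 at 699 ± 53.1, Hsp90aa1 at 215 ± 3.89 and Hspa1a at 119 ± 10.4. Next came Hsph1 at 60.7 ± 3.97, Hspe1 at 58.4 ± 0.644 and Hspd1 at 53.3 ± 1.57. Hspa1b at 39.8 ± 3.17 and Dnajb1 at 34.1 ± 3.79 followed, and Hsf1 was lowest at 6.88 ± 0.416. Among neighbours in this order, Hsph1 and Hspe1, and Hspa1b and Dnajb1, did not differ beyond their SDs. In LXRdKO, Hspa1a came to 34.2 ± 2.91 CPM per kb, level with Hsph1 at 34.7 ± 4.42 and below Hspd1 at 41.1 ± 3.91. For genes with shared windows these levels also depend on how shared reads were assigned, which was not tested.

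**Figure D4:**
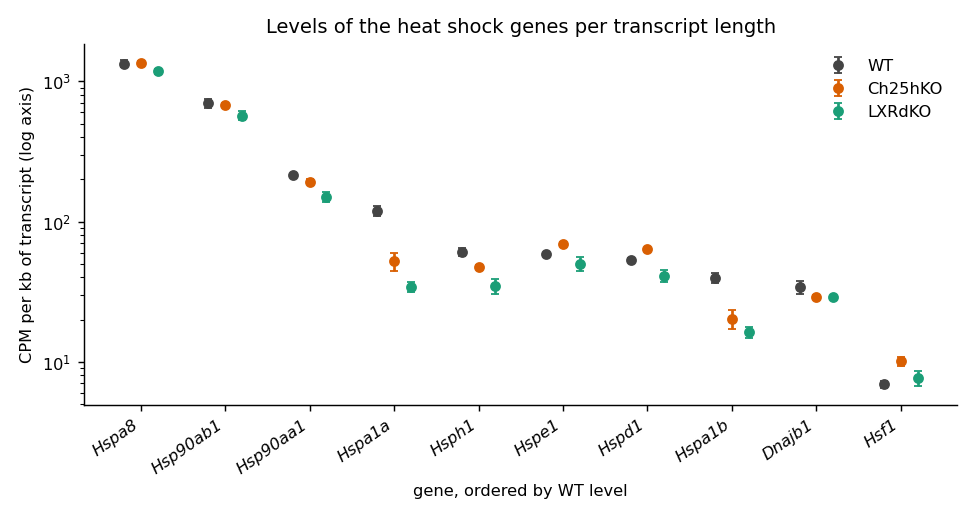
Mean CPM per kb of transcript on a log axis, with SD over 2 libraries as bars, by gene and genotype. Hspa8 and Hsp90ab1 stood highest in every genotype and Hsf1 lowest, while Hspa1a was above Hspe1 and Hspd1 in WT and lower than Hspe1 and Hspd1 in both knockouts.

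Genes that work with these proteins were read from lists chosen with earlier results of these data known. All counts of called genes in these lists are to be read against the shares of all tested genes. In Ch25hKO 19.5% of these fell and 19.8% rose, and in LXRdKO 15.5% fell and 16.4% rose. Between the knockouts, 18.6% were lower and 19.3% higher in LXRdKO. A count near these shares is no trait of a list. Of 22 HSP70 partners, 8 fell and 3 rose in Ch25hKO, and 9 fell and 5 rose in LXRdKO (medians -0.06 and -0.21). Dnaja1, a J-domain gene, fell in both (-0.49 ± 0.06 and -0.64 ± 0.06, edgeR adjusted p = 5.88e-06 and 3.51e-07). Dnaja2, another of that kind, fell by 0.54 ± 0.07 in Ch25hKO and stood at 77.1% of the WT mean in LXRdKO. Hspa4l, an exchange factor gene related to Hsph1, fell by 0.68 ± 0.06 in LXRdKO and stood at 84.3% in Ch25hKO. Between the knockouts, 7 were lower and 2 higher in LXRdKO, with St13, a cochaperone linking HSP70 and HSP90, at -0.50 ± 0.06 and Dnajb2 at -0.63 ± 0.08. Without Ch25hKO replicate 1, 5 fell and 0 rose in Ch25hKO and 1 was higher in the comparison of knockouts. The number that rose in Ch25hKO was also 1 without WT replicate 2 or Ch25hKO replicate 2. With DESeq2 it was 0, and the numbers that rose in LXRdKO and were higher between the knockouts were 2 and 1. Fitting only the libraries compared gave 3 and 4, and a filter of at least 5 CPM gave 3 that rose in LXRdKO. In LXRdKO, 5 that rose came to 3 without WT replicate 1 or either Ch25hKO library, 2 without WT replicate 2 and 1 without either LXRdKO library. Between the knockouts, 4 were lower without LXRdKO replicate 2, and 4 were higher without either WT library and 1 without Ch25hKO replicate 2 or LXRdKO replicate 2.

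Of 13 HSP90 cochaperones, 4 fell and 2 rose in Ch25hKO and 8 fell and 1 rose in LXRdKO (medians -0.04 and -0.27). The shares of all tested genes that fell were 19.5% and 15.5%, and those that rose 19.8% and 16.4%. In LXRdKO, Ppid, the gene of cyclophilin 40, fell 1.99-fold (-0.99 ± 0.07, edgeR adjusted p = 3.30e-09), and Ptges3, the gene of p23, fell 1.73-fold (-0.79 ± 0.06, edgeR adjusted p = 3.09e-08). Both were also lower than in Ch25hKO (-0.82 ± 0.07 and -0.88 ± 0.06), among 6 lower and 1 higher. In Ch25hKO, Ahsa1, which speeds the ATPase of HSP90, fell by 0.63 ± 0.06. Stip1, the gene of the HSP70 to HSP90 adaptor HOP, rose there by 0.43 ± 0.05. Ahsa1 stood at 77.7% of the WT mean in LXRdKO and Stip1 at 111%. The number that fell in Ch25hKO was 1 without Ch25hKO replicate 2 and 2 without WT replicate 1, Ch25hKO replicate 1 or LXRdKO replicate 2. It was 1 with DESeq2 and 2 with no filter on low counts. The 1 that rose in LXRdKO was lost with RLE scaling, DESeq2, the 5 CPM filter or only the libraries compared. In LXRdKO, 5 fell without either LXRdKO library, and the 1 that rose was lost when WT replicate 2 or a knockout library was left out.

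The TRiC genes, which encode the 8 subunits of the cytosolic chamber, were read next to the mitochondrial pair. In Ch25hKO 5 of 8 rose and 0 fell (median 0.15), with Cct6a at 0.28 ± 0.07 and Tcp1 at 0.22 ± 0.06. In LXRdKO 2 of 8 fell and 0 rose (median -0.08), with Cct8 at -0.17 ± 0.06 and Cct3 at -0.18 ± 0.06. All 8 were lower in LXRdKO than in Ch25hKO (median -0.27), with Cct3 at -0.37 ± 0.06 and Cct8 at -0.31 ± 0.06. Shares of all tested genes were 19.8% that rose in Ch25hKO, 15.5% that fell in LXRdKO and 18.6% lower between the knockouts. The rise in Ch25hKO was called for 3 genes with RLE scaling and 2 with DESeq2, which called 1 fall in LXRdKO. It was called for 1 gene without WT replicate 2 or Ch25hKO replicate 1, for 2 without Ch25hKO replicate 2 and for 8 without WT replicate 1. The fall in LXRdKO was called for 0 genes without WT replicate 1 or either LXRdKO library and for 5 without WT replicate 2, and the difference between knockouts for 4 without LXRdKO replicate 2. Of 6 prefoldin genes, whose complex hands proteins to TRiC, only Pfdn2 rose in Ch25hKO (0.21 ± 0.08) and only Pfdn5 in LXRdKO (0.27 ± 0.05), and 0 fell (medians 0.17 and 0.03). Against Ch25hKO, Pfdn2 was lower (-0.31 ± 0.08) and Pfdn5 higher (0.15 ± 0.05) in LXRdKO. Among all tested genes, 19.8% rose in Ch25hKO and 16.4% in LXRdKO. DESeq2 did not make the prefoldin call in Ch25hKO, which also failed without WT replicate 1 or either Ch25hKO library, and 2 genes rose with no filter or without WT replicate 2. Between the knockouts, 0 were lower without LXRdKO replicate 2, and 0 were higher without that library, LXRdKO replicate 1 or Ch25hKO replicate 1.

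Of 11 other mitochondrial chaperones and proteases, 4 rose and 0 fell in Ch25hKO and 1 fell and 0 rose in LXRdKO (medians 0.15 and -0.04). Among all tested genes, 19.8% rose in Ch25hKO and 15.5% fell in LXRdKO. Lonp1, a protease of the matrix, rose by 0.49 ± 0.08 in Ch25hKO, and Dnaja3, a mitochondrial J-domain gene, rose by 0.53 ± 0.09. Hspa9, the mitochondrial HSP70, fell in LXRdKO (-0.21 ± 0.06, edgeR adjusted p = 0.00765). LXRdKO was lower than Ch25hKO in 4 of the 11 and higher in 0, including Lonp1 (-0.69 ± 0.08) and Hspa9 (-0.42 ± 0.06). Without WT replicate 2, 1 fell in Ch25hKO, and 2 rose and 2 fell in LXRdKO. The number that fell in LXRdKO was 2 with RLE or upper-quartile scaling or no filter and 3 with the 5 CPM filter. It was 2 without LXRdKO replicate 1 and 0 without LXRdKO replicate 2.

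The other HSF genes and the small heat shock genes were mostly low. Hsbp1, which encodes an HSF1-binding protein, rose in Ch25hKO (0.17 ± 0.05, edgeR adjusted p = 0.0110) and LXRdKO (0.35 ± 0.05, edgeR adjusted p = 3.74e-05), and was higher in LXRdKO than in Ch25hKO (0.18 ± 0.05). Hsf2 was at 0.03 ± 0.07 and -0.05 ± 0.07 and Hsf5 at 0.74 ± 0.60 and 1.15 ± 0.56, none of them called. Hsf4 was at 0.35 ± 0.46 in LXRdKO and passed in Ch25hKO (1.09 ± 0.42, edgeR adjusted p = 0.0466) where its counts were 8 and 17 for WT against 30 and 23 for Ch25hKO. Between knockouts, Hsf2 (-0.08 ± 0.07), Hsf4 (-0.74 ± 0.40) and Hsf5 (0.41 ± 0.51) were not called. Of 2 calls in this list in Ch25hKO, 1 was left with upper-quartile scaling, DESeq2, the 5 CPM filter or only the libraries compared, and without WT replicate 1 or either LXRdKO library, and 0 without either Ch25hKO library. The call of Hsbp1 between knockouts was lost without Ch25hKO replicate 1 or either LXRdKO library.

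Of the small heat shock genes, Hspb1, the gene of HSP27, was low, with 28 and 38 counts for WT, 12 and 26 for Ch25hKO, and 18 and 12 for LXRdKO. It fell in LXRdKO (-1.14 ± 0.40, edgeR adjusted p = 0.0376) and was not called in Ch25hKO (-0.78 ± 0.38) or between the knockouts (-0.36 ± 0.44). Cryab, the gene of αB-crystallin, was not called in either knockout (0.59 ± 0.31 and -0.31 ± 0.35) and was lower in LXRdKO than in Ch25hKO (-0.90 ± 0.33, edgeR adjusted p = 0.0384). Hspb6 was not called in any comparison (0.23 ± 0.16, 0.21 ± 0.16 and -0.02 ± 0.15), and Hspb8 had 2 counts or fewer per library and was not tested. DESeq2 made neither call, and the 5 CPM filter left neither gene to test. That of Hspb1 was also lost without WT replicate 2 or either LXRdKO library, and that of Cryab without Ch25hKO replicate 1 or either LXRdKO library. Without Ch25hKO replicate 2, 1 small heat shock gene fell in Ch25hKO.

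Chaperones of the endoplasmic reticulum (ER) were read as the nearest group in function. Of 14, 10 fell and 0 rose in Ch25hKO and 2 fell and 0 rose in LXRdKO (medians -0.21 and -0.05). The shares of all tested genes that fell were 19.5% in Ch25hKO and 15.5% in LXRdKO. Hspa5, the HSP70 of the ER, fell in Ch25hKO (-0.45 ± 0.07), as did Pdia3, a disulfide isomerase gene (-0.33 ± 0.06). In LXRdKO, Dnajb9 (-0.43 ± 0.08) and Pdia4 (-0.22 ± 0.07) fell. Dnajb9 stood at 74.4% of the WT mean in LXRdKO and 84.3% in Ch25hKO, and Pdia4 at 85.8% and 86.0%. Between the knockouts 9 of the 14 were higher and 1 lower in LXRdKO (median 0.18), among them Sdf2l1 (0.52 ± 0.08) and Hspa5 (0.35 ± 0.07), where 9 of the 10 heat shock genes were lower. The number that fell in Ch25hKO was 5 without WT replicate 1, 4 without Ch25hKO replicate 1 and 6 without Ch25hKO replicate 2. In LXRdKO, 4 fell with upper-quartile scaling, DESeq2 or the 5 CPM filter. There, 6 fell without WT replicate 2, and 1 fell without WT replicate 1 (where 3 rose) or either LXRdKO library. Between the knockouts, 3 were higher without Ch25hKO replicate 1, 5 without Ch25hKO replicate 2 and 4 without either LXRdKO library, and the 1 that was lower was lost without either Ch25hKO library or LXRdKO replicate 2.

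**Figure D5:**
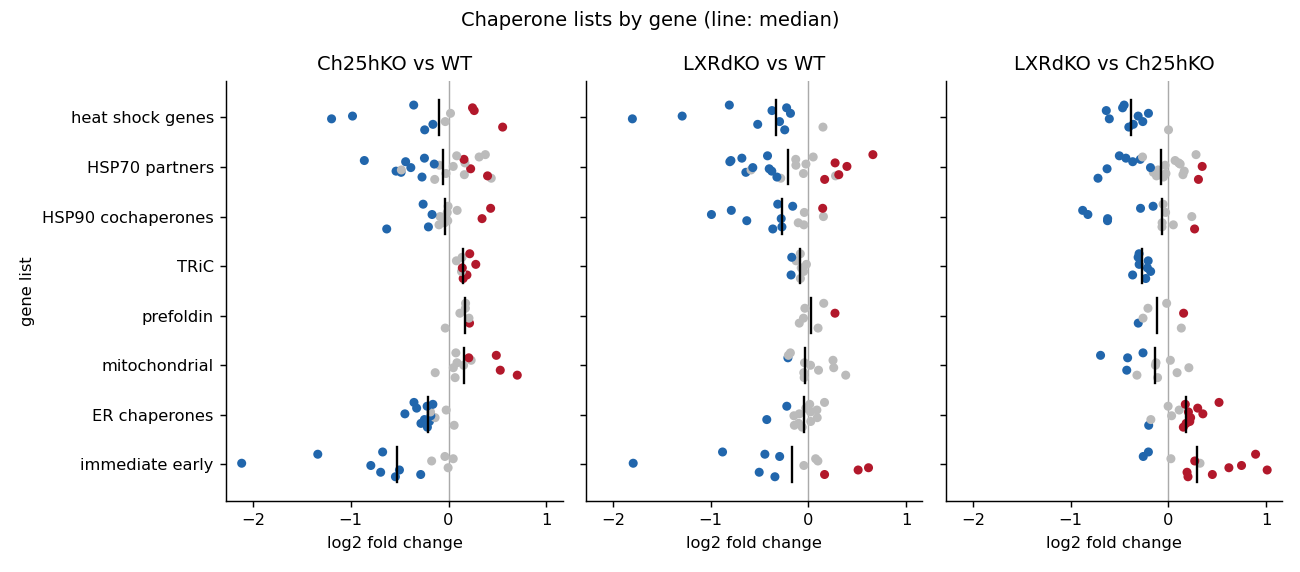
Log2 fold changes of each tested gene in 8 lists for the 3 comparisons, with blue for genes called lower, red for genes called higher, grey for genes not called, and a black line at the list median. Between the knockouts, TRiC and the heat shock genes lay below 0 or at it (medians -0.27 and -0.38), and ER chaperones mostly above it (median 0.18).

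Immediate early genes, known to respond quickly to many stimuli, moved as well. Of 12 immediate early genes, 8 fell and 0 rose in Ch25hKO and 6 fell and 3 rose in LXRdKO (medians -0.52 and -0.17). Among all tested genes, 19.5% fell and 19.8% rose in Ch25hKO, and 15.5% fell and 16.4% rose in LXRdKO. Fos fell by 0.79 ± 0.07 in Ch25hKO, and Zfp36, whose protein destabilises cytokine mRNAs, fell in both knockouts (-0.67 ± 0.06 and -0.88 ± 0.06). Dusp1, a kinase phosphatase gene, fell by 0.50 ± 0.07 in LXRdKO. Its mean was 70.5% of that of WT in LXRdKO and 61.8% in Ch25hKO. Between the knockouts, 8 were higher and 2 lower in LXRdKO, with Egr1 at 1.01 ± 0.09 and Fos at 0.75 ± 0.07. The 8 came to 5 without Ch25hKO replicate 1 or LXRdKO replicate 2, and the 2 to 1 without either Ch25hKO library or LXRdKO replicate 1. Their summed level was 2657 to 2869 CPM for WT, 1777 to 1869 for Ch25hKO and 1762 to 1917 for LXRdKO. The part of this in the changes of the heat shock genes was not tested.

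Markers of cell types also moved. In either direction, 39.3% of all tested genes changed in Ch25hKO and 31.8% in LXRdKO. All 6 tested stromal markers rose in Ch25hKO and 2 rose in LXRdKO, and the 7 listed summed to 12.2 to 12.7 CPM for WT, 28.3 to 30.9 for Ch25hKO and 14.4 to 16.2 for LXRdKO. Of 5 tested dendritic cell markers, 3 fell in Ch25hKO and 1 in LXRdKO, with sums of 26.8 to 27.8, 12.6 to 13.5 and 21.4 to 23.1 CPM. Of 5 tested neutrophil markers, 1 rose in Ch25hKO and 4 fell in LXRdKO. The sums were 39.6 to 40.4 CPM for WT, 52.4 to 55.2 for Ch25hKO and 19.3 to 19.9 for LXRdKO. Most of each sum was S100a8, with means of 35.5, 49.3 and 16.5 CPM, and Camp stood at 136% of the WT mean in LXRdKO. Of 8 macrophage markers, 1 rose and 2 fell in Ch25hKO and 6 rose in LXRdKO, and of 2 tested lymphoid markers 1 fell in Ch25hKO and 0 changed in LXRdKO, with sums of at most 3.58 CPM. None of the matched markers was at 0 in all libraries. Beside these, the 10 heat shock genes summed to 6387 to 6937 CPM for WT, 6170 to 6455 for Ch25hKO and 5055 to 5484 for LXRdKO. The part of other cells in the changes was not tested.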

How the data were processed

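The authors deposited raw read counts per gene symbol for 6 libraries, with no normalization. The submitters' processing notes list CASAVA, STAR 2.3.0, HTSeq and the build mm10. RNA (100 ng) was amplified before library construction, per the labels' protocols, so reads are not independent molecules. For the annotation, counting mode and strand, nothing is given in the sources used here.

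Counts were filtered with filterByExpr, scaled by TMM and fitted with edgeR 4.0.16 (R 4.3.3) by robust quasi-likelihood, with 1 mean per genotype over all 6 libraries (3 residual degrees of freedom). Benjamini-Hochberg adjustment ran over 12923 genes. A standard error is the fold change divided by the square root of F. It rests on a spread drawn toward the trend over all genes (median prior degrees of freedom 14.4), not on a gene's own replicates only. Scripts were tested on simulated data. Alternatives were RLE and upper-quartile scaling, DESeq2 1.42.0, limma-voom (limma 3.58.1), 2 other filters, only the libraries compared, a replicate block, and each library left out, which assumes that the lone library varies like the other groups.

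The members and the 9 chaperone and stress gene lists were chosen with earlier results of these data known. Named list genes are the 2 called genes with the lowest p per comparison, or all genes of lists with up to 4. Coordinates and transcripts are from GENCODE M21 (GRCm38, the mm10 build), promoters from RefSeq.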

Additional observations from a re-analysis of the deposited data

How the results depend on the processing

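Over 15 alternatives, 409 of 450 fold changes of the 10 genes in the 3 comparisons kept their direction and side of the threshold, 32 lost a call and 9 changed sign, the latter where no change was called. These were Hspa8 in Ch25hKO (-0.050 to 0.077 with 1 library left out), Hsp90ab1 in Ch25hKO (-0.12 to 0.046) and Dnajb1 between the knockouts (-0.032 to 0.033). The last was also -0.0038 with upper-quartile scaling, -0.0033 without a filter, -0.011 with at least 5 CPM in 2 libraries and -0.00058 with the replicate block. With 1 library left out, 3 to 5 members fell and 2 to 3 rose in Ch25hKO, 5 to 9 fell in LXRdKO, and 5 to 9 were lower in LXRdKO than in Ch25hKO. The counts with fewer libraries rest on fewer samples. Without LXRdKO replicate 2, fewer genes of the whole table were called lower in LXRdKO as well. Same-numbered libraries did not deviate together (correlations -0.11, -0.01 and 0.02), so the numbers were not taken as pairs. With the replicate block, 3 rose and 4 fell in Ch25hKO, 8 fell in LXRdKO and 8 were lower between the knockouts: Hsp90aa1 in Ch25hKO (adjusted p = 0.0755), Hspa8 in LXRdKO (0.0586) and Hspa1b between the knockouts (0.0671) were not called. In the lists, 3 HSP70 partners and 0 HSP90 cochaperones rose in LXRdKO with the block. In Ch25hKO, 1 gene of the HSF list, which includes Hsbp1, rose with the block. With the WT numbers crossed, chosen after seeing the data, the counts were 3, 5, 9 and 9, and 4 ER chaperones fell in LXRdKO. With 2 libraries per group, differences near the size of the standard errors given were not detectable.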

Other observations

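The neighbourhood of Hspa1a and Hspa1b was read after their values were seen. Besides the pair, 6 tested genes lie within 50 kb on chromosome 17. Against WT, 2 of the 6 rose and 1 fell in each knockout. Over all tested genes, 19.8% rose and 19.5% fell in Ch25hKO, and 16.4% rose and 15.5% fell in LXRdKO. The one that fell was Hspa1l (34972703 to 34979285, plus strand), an HSP70 gene that starts next to Hspa1a on the other strand, at -0.44 ± 0.12 in Ch25hKO (edgeR adjusted p = 0.00892) and -0.80 ± 0.13 in LXRdKO (edgeR adjusted p = 0.000104). Its counts were 300 and 263 for WT, 187 and 224 for Ch25hKO, and 166 and 157 for LXRdKO, and 7.95% of the Hspa1a windows of 50 bases also occur in it. Those that rose were Lsm2, an RNA splicing gene (0.74 ± 0.15 and 0.48 ± 0.15), and Vars, a tRNA synthetase gene (0.60 ± 0.14 and 0.39 ± 0.14). Ehmt2 and Neu1 were at -0.01 ± 0.06 and 0.05 ± 0.06 in Ch25hKO and were not called.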
